A study of Mus musculus with 18 samples.

Results

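Transcripts of 8 complement genes were followed in mouse eosinophils: the chains of C1q (C1qa, C1qb and C1qc), the components C2 and C3, factor B (Cfb), properdin (Cfp) and the C1 inhibitor (Serping1). They were chosen by name, by matching the Ensembl gene identifier of each row, without its version, to these mouse symbols. Each of the 8 matched 1 row of the 54446 genes in the table.

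The eosinophils came from the peritoneal cavity of Il5Tg mice of the NJ.1638 line, which carry an Il5 transgene and have many eosinophils, and the labels give the strain as C57BL/6. They were enriched by removing cells that bear Thy1.2 or B220, cultured for 18 h and purified again with beads against Siglec-F before their RNA was extracted. All 18 libraries analysed here came from cultures with apoptotic cells (ACs), which were dexamethasone-killed thymocytes from wild-type mice, added at 5 per eosinophil. The Type 1 experiment compared ACs alone with E. coli + ACs, IFN-γ + ACs and IFN-γ + E. coli + ACs, where IFN-γ came first and the bacteria followed. The IL-4 experiment compared ACs alone with IL-4 + ACs. Each of the 6 groups had 3 libraries. The study asked how eosinophils given a Type 1 or a Type 2 stimulus respond in the presence of dying cells. Cultures that lacked ACs are not analysed here. The study calls its replicates biological and, in a figure of eosinophils with ACs, takes each lane from a different mouse. The labels number the libraries and name no mouse, so the p-values measure the spread between these samples.

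Complement is a cascade of plasma proteins that coats microbes and dying cells and marks them for uptake. C1q, built from the products of C1qa, C1qb and C1qc, recognizes antibody and apoptotic cell surfaces and opens the classical pathway. C2 supplies the protease of the classical C3 convertase, and factor B supplies that of the alternative one. C3 is the protein that both convertases cleave, properdin holds the alternative convertase together, and the product of Serping1 inhibits the proteases C1r and C1s. Macrophages are a known source of C1q, whereas many other components are made chiefly by hepatocytes.

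All 8 genes lie on the minus strand of GRCm38. C1qb (chr4:136880129-136886187), C1qc (chr4:136889804-136893065) and C1qa (chr4:136895917-136898803) stand side by side within 18675 bp of chromosome 4. Cfb (chr17:34856374-34862518) and C2 (chr17:34862604-34898265) are 85 bp apart on chromosome 17, and C3 (chr17:57203970-57228136) lies farther along it. Cfp is at chrX:20925454-20931555 and Serping1 at chr2:84765387-84775444. RefSeq promoter windows of GRCm38.p6, with 250 bases before and 50 after the start site, were found for 4 of the 8 genes, C1qb, C1qc, C3 and Cfp. C1qa, C2, Cfb and Serping1 had no entry. The windows of the C1q neighbours whose transcripts moved together, and of C3, which moved otherwise, are shown 5′ to 3′ on the minus strand, with capitals where a searched motif matched.
C1qb, chr4:136886151-136886450: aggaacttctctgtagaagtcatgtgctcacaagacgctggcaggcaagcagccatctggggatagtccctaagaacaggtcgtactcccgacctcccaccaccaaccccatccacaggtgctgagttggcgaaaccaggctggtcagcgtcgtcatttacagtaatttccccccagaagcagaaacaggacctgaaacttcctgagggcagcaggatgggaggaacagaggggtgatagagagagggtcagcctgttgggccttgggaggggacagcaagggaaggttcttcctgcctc
C1qc, chr4:136892865-136893164: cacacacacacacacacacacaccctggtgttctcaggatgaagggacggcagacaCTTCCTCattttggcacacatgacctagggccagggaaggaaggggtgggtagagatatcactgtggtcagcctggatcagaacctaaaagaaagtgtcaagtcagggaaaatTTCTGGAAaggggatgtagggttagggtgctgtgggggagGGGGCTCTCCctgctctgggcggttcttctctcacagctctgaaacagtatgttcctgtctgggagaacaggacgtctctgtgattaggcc
C3, chr17:57228087-57228386: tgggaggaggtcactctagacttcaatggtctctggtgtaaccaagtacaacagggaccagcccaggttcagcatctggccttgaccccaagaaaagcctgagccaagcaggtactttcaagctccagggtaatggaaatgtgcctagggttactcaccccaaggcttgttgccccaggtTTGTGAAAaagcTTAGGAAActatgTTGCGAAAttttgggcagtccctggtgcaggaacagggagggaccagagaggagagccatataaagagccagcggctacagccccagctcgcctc
The 5 motifs searched on both strands were the GAS element TTCNNNGAA, the ISRE core GAAANNGAA, the C/EBP core TTNNGNAA, the PU.1 core GAGGAAG and the NF-κB motif. Of 32851 RefSeq promoter windows of this length, 8.3% held the GAS element, 8.56% the ISRE core, 40.7% the C/EBP core, 13.6% the PU.1 core and 4.51% the NF-κB motif. In the C3 window the C/EBP core matched 3 times, from bases 181, 193 and 206. In the C1qc window the PU.1 core matched from base 57, the C/EBP core from base 170 and the NF-κB motif from base 210. None of these matches overlapped another. The C1qb and Cfp windows held no match to any of the motifs. A match describes letters in a window and is not a binding site.

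The measurement was a normalized read count, that is, the reads on a gene scaled by the size factor of its library. The libraries were made by CEL-Seq2, a method that reads the 3′ ends of transcripts. Reads on genes numbered from 779421 to 7782072 in a library, and the shallow ones were both replicate 3 libraries in the IL-4 experiment. Of the defining eosinophil markers, Siglecf ranged from 1514 to 3367, Ccr3 from 2623 to 4934, Il5ra from 102 to 455 and Prg2 from 57.5 to 270.3, whereas Epx, the eosinophil peroxidase, was at 0 to 25.7. Differences were fitted with limma on log2 of the normalized count plus 1, and p-values were adjusted by Benjamini-Hochberg over all genes tested. A gene was past the threshold at an adjusted p under 0.05 with a change of at least 1.5-fold. Fold changes on this scale understate the change of low genes. An exact permutation test between groups of 3 cannot give a two-sided p below 0.1.

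The 8 transcripts did not move in 1 direction. With E. coli, the C1q chains fell, to means between 0.352 and 0.393 of those with ACs alone. With IFN-γ, C1qb, C2, C3, Cfb and Serping1 rose, and Serping1 went from near the detection limit to a mean of 251 normalized counts. With both, the C1q chains and Cfp were below ACs alone while C3 and Serping1 were above it, and C2 and Cfb were near it. The plot of values by library shows all 8.

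**Figure D1:**
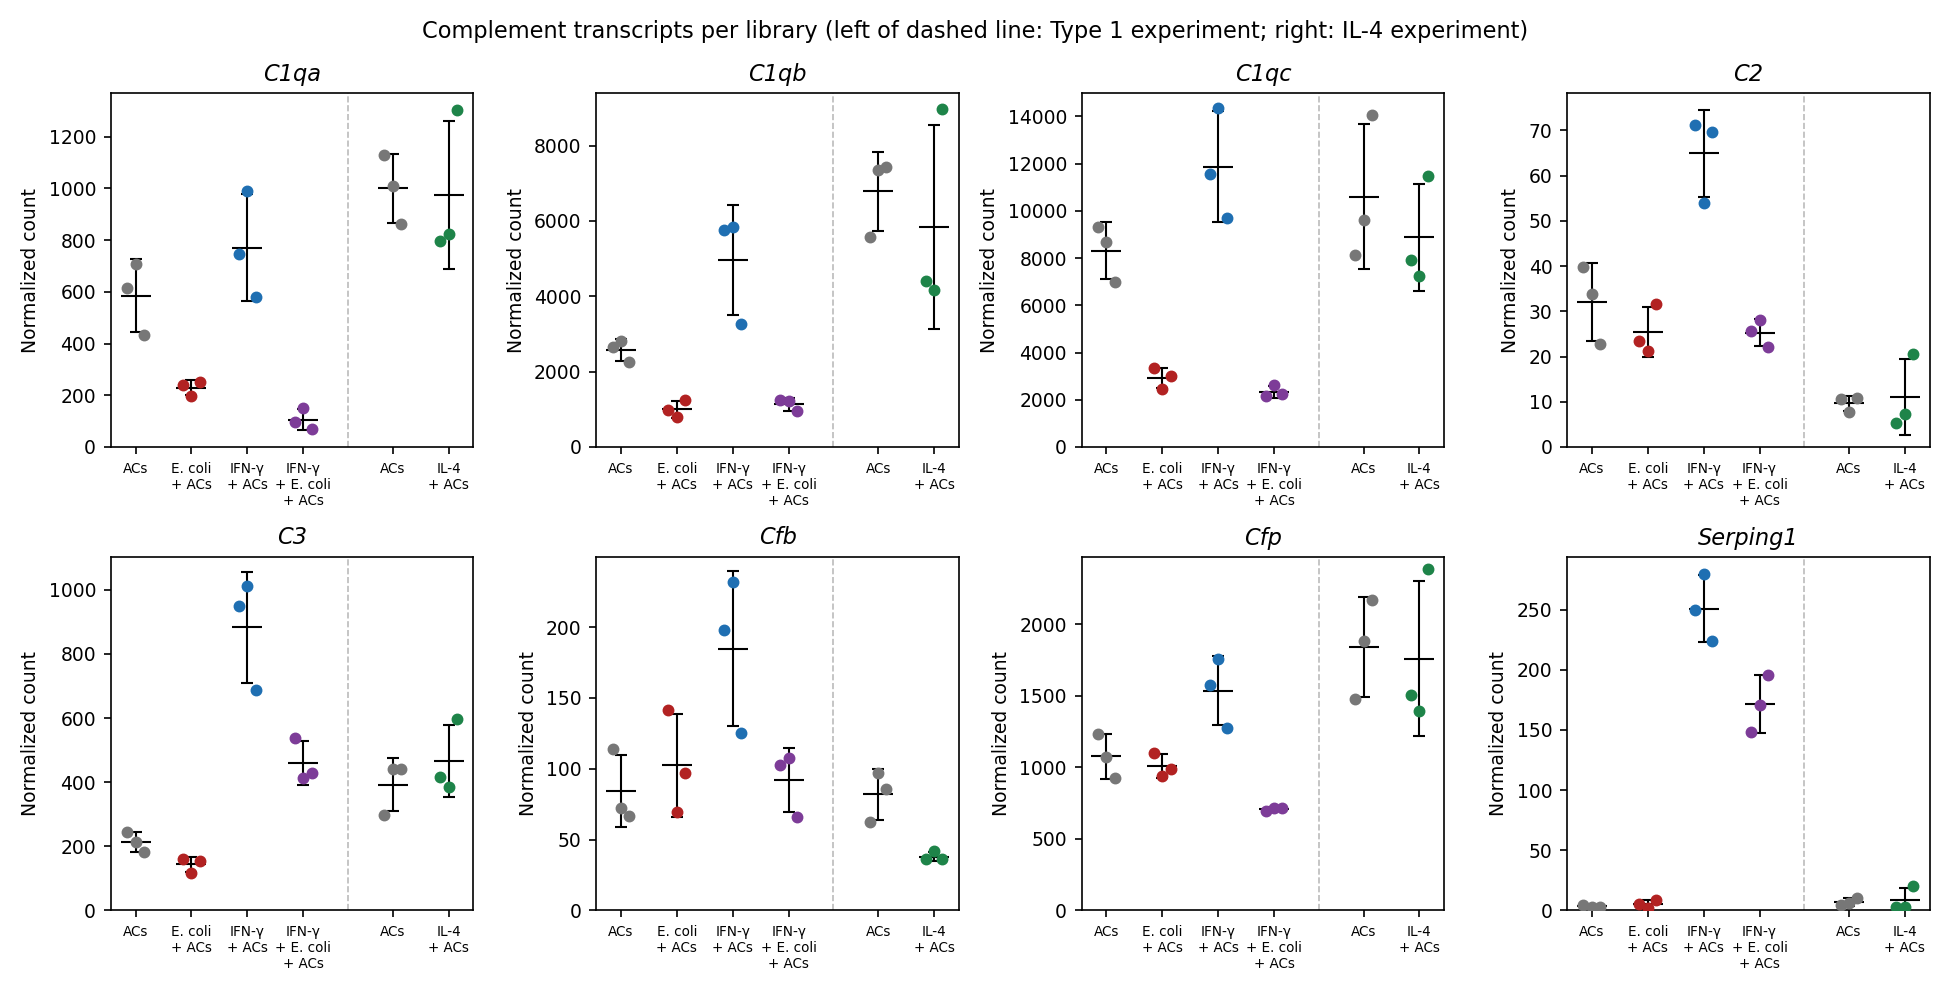
Normalized count (vertical axis, linear from 0) of each complement transcript in each of the 18 libraries, by group. Points are libraries, the long tick is the mean of 3 libraries and the bars are the SD. The C1q panels are low in both groups with E. coli, and in the Serping1 panel the 6 libraries with IFN-γ, at 148 to 280, stand above all others.

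Against ACs alone, E. coli + ACs left 3 of the 8 past the threshold, all lower, where 5.25% of the 10166 genes tested were past it downward and 5.05% upward. IFN-γ + ACs left 5 of 8 past it, all higher, with 11.4% of all genes higher and 9.96% lower. IFN-γ + E. coli + ACs left 6 of 8 past it, 2 higher and 4 lower, with 14.7% of all genes higher and 17.2% lower. The median log2 change of the 8 was -0.44 with E. coli, 0.96 with IFN-γ and -0.45 with both, where the medians of all genes were 0.00, 0.00 and -0.05. Serping1 reached the minimum mean of 10 for testing only through its IFN-γ libraries, so its passing is not a separate piece of support for these counts. Rescaling all libraries to a common upper quartile changed the split of all genes with both stimuli from 1494 higher and 1746 lower to 1155 higher and 2200 lower.

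**Figure D2:**
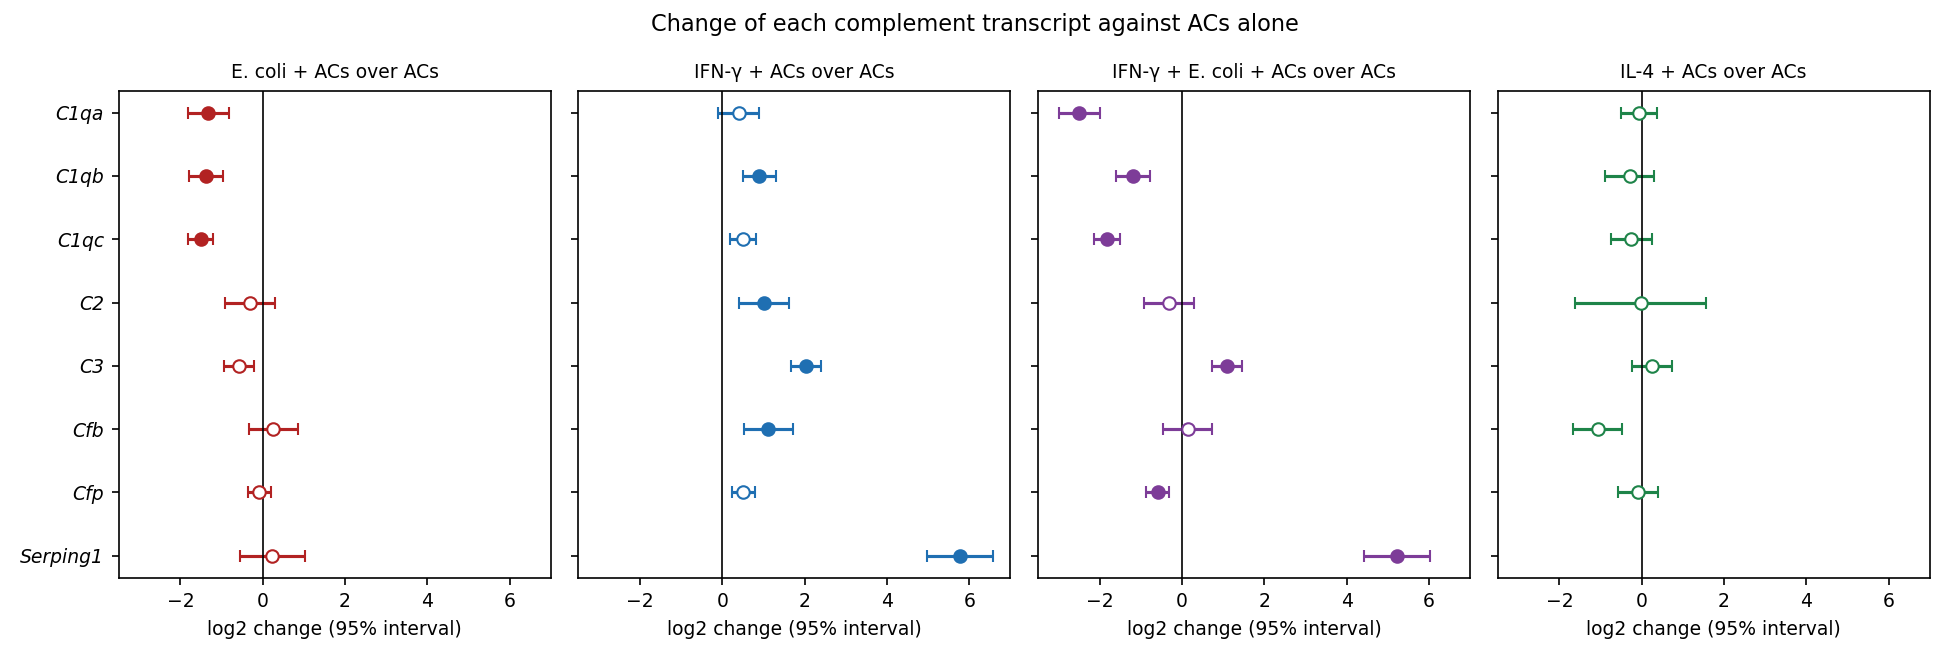
log2 change of each complement transcript against ACs alone of the same experiment (horizontal axis), with its 95% interval from limma. Filled circles are past the threshold and open circles are not. Serping1 was not tested in the IL-4 experiment. The C1q chains are at or below -1.19 in both panels with E. coli, and Serping1 is at 5.78 with IFN-γ.

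C1qa encodes the A chain of C1q. Its normalized counts were 616, 709 and 431 with ACs alone and 239, 199 and 252 with E. coli + ACs. They were 745, 989 and 579 with IFN-γ + ACs. Both stimuli together gave 98.4, 149 and 70.4. All libraries with E. coli lay below all libraries without it, and those with both stimuli lay below those with E. coli alone, whereas the IFN-γ and ACs libraries overlapped. The log2 change against ACs was -1.32 ± 0.24 (SE, limma adjusted p = 0.00080) with E. coli and -2.49 ± 0.24 (adjusted p = 1.3e-07) with both, and 0.39 ± 0.24 (adjusted p = 0.25) with IFN-γ.

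C1qb encodes the B chain. It stood at 2666, 2821 and 2252 with ACs alone and at 989, 791 and 1242 with E. coli + ACs. It reached 5764, 5830 and 3277 with IFN-γ + ACs, and with both stimuli it was at 1252, 1215 and 942. The ACs group overlapped neither the E. coli group nor the IFN-γ group, and the groups with E. coli overlapped each other. C1qb fell by 1.37 ± 0.19 on the log2 scale with E. coli (SE, limma adjusted p = 6.5e-05) and by 1.19 ± 0.19 with both (adjusted p = 7.9e-05). It rose by 0.90 ± 0.19 with IFN-γ (adjusted p = 0.0017). Without the replicate 1 libraries of all groups this rise was 0.79 (limma adjusted p = 0.056).

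C1qc encodes the C chain. Its counts were 9299, 8681 and 6977 with ACs alone, and 3325, 2471 and 2993 with E. coli + ACs. They were 11576, 14355 and 9678 with IFN-γ + ACs, and both stimuli gave 2138, 2615 and 2259. The order of the groups was IFN-γ, ACs, E. coli and both, and only the last neighbours overlapped. The log2 change was -1.51 ± 0.15 with E. coli (SE, limma adjusted p = 8.9e-07) and -1.83 ± 0.15 with both (adjusted p = 1.3e-08). With IFN-γ it was 0.50 ± 0.15 (adjusted p = 0.016), short of 1.5-fold. Without 1 library it passed, at 0.59 without ACs replicate 1 and 0.64 without IFN-γ + ACs replicate 3.

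The chains did not keep a fixed proportion. The C1qb count was 4.33, 3.98 and 5.22 times the C1qa count with ACs alone and 4.14, 3.98 and 4.92 times with E. coli + ACs. It was 7.73, 5.89 and 5.66 times that count with IFN-γ + ACs. With both it was 12.7, 8.16 and 13.4 times that count. Within the Type 1 experiment all 6 libraries with IFN-γ had a higher ratio than all 6 without it. The IL-4 experiment had no IFN-γ, and its libraries overlapped the IFN-γ range. Its ratios were 4.93 to 8.60 with ACs alone and 5.07 to 6.87 with IL-4 + ACs. On the log2 scale the Type 1 difference was 0.94, a 1.91-fold change. By a two-sided exact permutation test of 6 against 6 libraries p was 0.0022, and 0.0065 adjusted over the 3 ratios compared. In the Type 1 experiment the ratio of C1qb to C1qc was 0.339 to 0.585 with IFN-γ and 0.287 to 0.415 without it. This was a 1.37-fold difference with overlap (exact permutation p = 0.0065, adjusted p = 0.0097). The ratio of C1qc to C1qa was 14.5 to 32.1 with IFN-γ and 11.9 to 16.2 without it there. This was a 1.40-fold difference (exact permutation p = 0.013, adjusted p = 0.013). In the IL-4 experiment C1qb to C1qc was 0.528 to 0.765 with ACs alone and 0.555 to 0.782 with IL-4 + ACs. There C1qc to C1qa was 7.21 to 16.3 and 8.79 to 9.92 in the same order. These ratios, which do not depend on library scaling, were compared after the values had been seen, so the p-values are not separate support. The tests pooled libraries with and without E. coli. Mean C1qb to C1qa was 4.51 with ACs alone and 6.43 with IFN-γ + ACs. It was 4.35 with E. coli + ACs and 11.4 with both stimuli. The pooled difference therefore does not give the effect of IFN-γ alone.

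**Figure D3:**
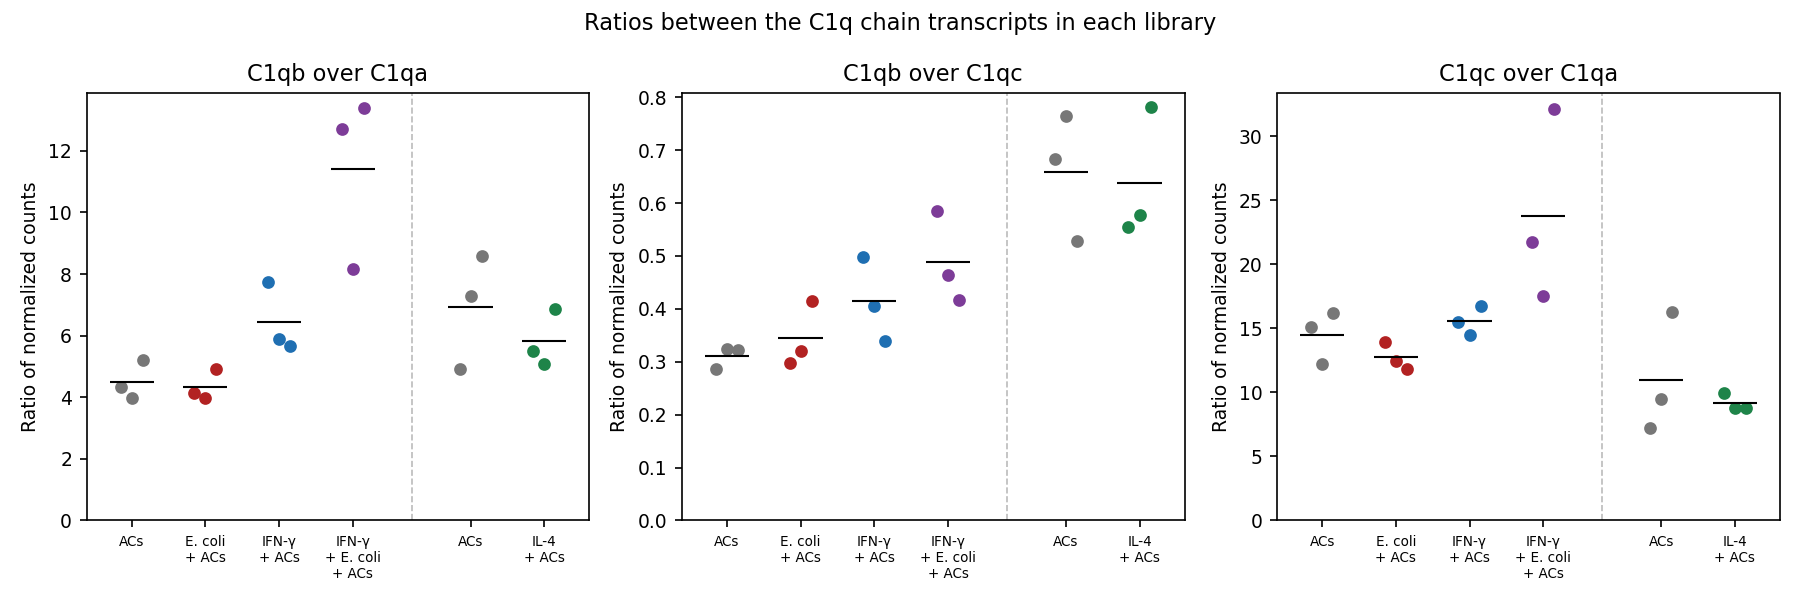
Ratio of normalized counts between C1q chain transcripts in each library (vertical axes, linear from 0), by group, with points for libraries and a line at the mean of 3. In the left panel the libraries with IFN-γ of the Type 1 experiment, at 5.66 to 13.4, lie above those of that experiment without it, at 3.98 to 5.22. The libraries of the IL-4 experiment, all without IFN-γ, are at 4.93 to 8.60.

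Markers of macrophages also differed between the groups. Of 16 macrophage markers, 15 were tested; 6 were lower and 0 higher with E. coli, 5 higher and 3 lower with IFN-γ, and 3 higher and 8 lower with both. Their summed counts ranged from 15219 to 19565 with ACs alone, 11273 to 14101 with E. coli, 26899 to 32567 with IFN-γ and 13499 to 14811 with both. None of the defining markers was at 0 in any library. Among them Cd68 changed by -0.90 and -1.57 on the log2 scale with E. coli and with both, past the threshold in each. With IFN-γ Cd68 (0.10) and Csf1r (-0.15) were not past it. Csf1r was not past the threshold with E. coli or with both either (-0.47 and -0.40), and Adgre1, which eosinophils also express, was at 0.39 and, past the threshold, 0.72. The summed C1q count was 0.635 to 0.721 of the summed marker count with ACs alone and 0.503 to 0.672 with IFN-γ. It was 0.307 to 0.347 of it with E. coli and 0.221 to 0.295 with both, below all libraries without E. coli. In bulk samples fewer cells of a type and less RNA per cell cannot be told apart, and the part of macrophages in the C1q result was not tested.

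**Figure D4:**
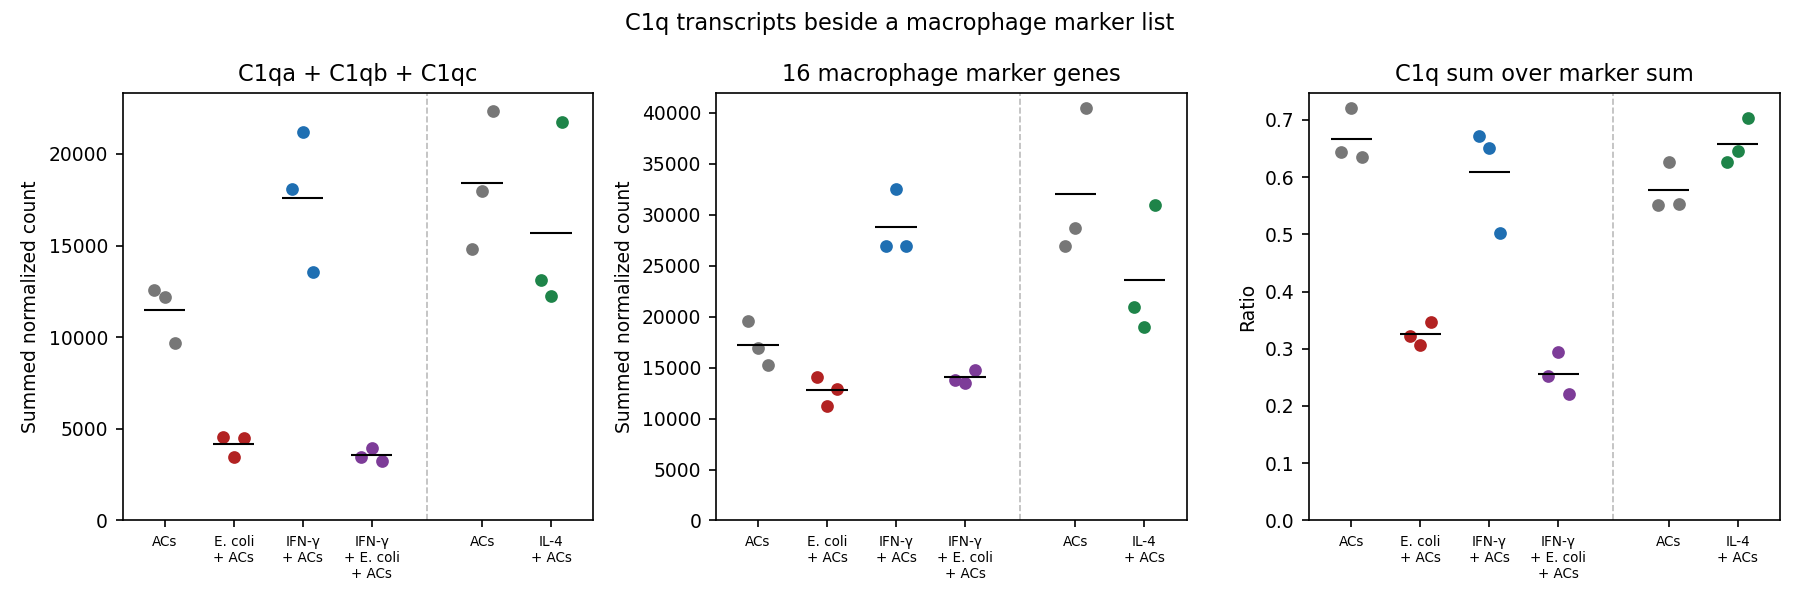
Summed normalized count of the C1q chains (left), of 16 macrophage markers that exclude C1q (middle) and their ratio (right) in each library, with points for libraries and a line at the mean of 3. All axes are linear from 0. The ratio is at 0.221 to 0.347 in the 6 libraries with E. coli and at 0.503 or more in the other libraries.

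C3, the convertase substrate, was higher in both groups with IFN-γ than with ACs alone. Its counts were 245, 215 and 183 with ACs alone and 160, 118 and 155 with E. coli + ACs. They rose to 950, 1012 and 687 with IFN-γ + ACs and to 537, 412 and 428 with both. None of the 4 groups overlapped another, in the order IFN-γ, both, ACs and E. coli. The log2 change was 2.03 ± 0.17 with IFN-γ (SE, limma adjusted p = 4.4e-08) and 1.10 ± 0.17 with both (adjusted p = 5.8e-05). With E. coli it was -0.57 ± 0.17 (adjusted p = 0.036), short of 1.5-fold, and it passed the threshold without ACs replicate 3 (-0.68) or without E. coli + ACs replicate 1 (-0.65).

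C2, the classical protease, was measured at low counts. It was at 39.9, 33.8 and 22.8 with ACs alone, at 23.4, 21.3 and 31.7 with E. coli + ACs and at 25.7, 28.1 and 22.1 with both. With IFN-γ + ACs it was at 71.2, 53.9 and 69.8, above all of these. The rise with IFN-γ was 1.02 ± 0.29 on the log2 scale (SE, limma adjusted p = 0.014), and it was 0.80 (adjusted p = 0.086) without ACs replicate 3. In a fit of all 18 libraries it had an adjusted p of 0.074. The changes with E. coli, -0.31 with a 95% interval of -0.92 to 0.30, and with both, -0.31 (-0.92 to 0.30), were not past the threshold.

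Cfb, the alternative protease, was also highest with IFN-γ. Its counts were 114, 72.3 and 66.9 with ACs alone, 141, 69.5 and 96.8 with E. coli + ACs and 103, 108 and 66.2 with both. With IFN-γ + ACs they were 198, 232 and 125, above all ACs libraries and, for 1 library, within the E. coli range. It rose by 1.12 ± 0.29 on the log2 scale with IFN-γ (SE, limma adjusted p = 0.0063). Without the replicate 2 libraries of all groups this rise was 0.84 (adjusted p = 0.094). With E. coli the change was 0.26 (95% interval -0.34 to 0.86) and with both it was 0.13 (-0.46 to 0.73). The readthrough gene Gm20547 shares 79.5% of the exon bases of Cfb and 42.8% of those of C2 on the same strand and was at 0 in all 18 libraries. Under the union counting mode that the methods name, reads on shared exons go to no gene, so the counts of both genes are uncertain.

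Cfp, which encodes properdin, was at 1233, 1072 and 923 with ACs alone and at 1102, 940 and 987 with E. coli + ACs, which overlapped. With IFN-γ + ACs it was at 1578, 1757 and 1274, above both. With both stimuli it was at 694, 717 and 713, below all other libraries of the experiment. The log2 change was -0.08 ± 0.13 with E. coli (SE, limma adjusted p = 0.76) and 0.51 ± 0.13 with IFN-γ (adjusted p = 0.0069), short of 1.5-fold. It fell by 0.59 ± 0.13 with both (adjusted p = 0.0015), barely past 1.5-fold, and missed that size without ACs replicate 1 (-0.49) or without IFN-γ + E. coli + ACs replicate 1 (-0.58). The change with IFN-γ passed it without ACs replicate 1 (0.61) or IFN-γ + ACs replicate 3 (0.64).

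Serping1, the C1 inhibitor, had the largest fitted change of the 8 with IFN-γ. With ACs alone it had 6, 3 and 4 reads, or normalized counts of 4.88, 2.82 and 3.26, and with E. coli + ACs it had 6, 2 and 10 reads, or 5.02, 1.64 and 8.80. Its counts were 249, 280 and 224 with IFN-γ + ACs, and with both stimuli 148, 171 and 196. The IFN-γ group lay above the group with both, and both lay far above the groups without IFN-γ, which overlapped. The fitted log2 change was 5.78 ± 0.38 with IFN-γ (SE, limma adjusted p = 1.0e-09) and 5.23 ± 0.38 with both (adjusted p = 3.0e-09), and 0.23 ± 0.38 with E. coli (adjusted p = 0.77). From the reads summed over libraries, 542 against 13, the ratio to ACs was 69.3 with IFN-γ (exact 95% interval 40.2 to 131, for counting error only). With both it was 46.6 (26.9 to 88.3).

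The stimuli were next compared with each other, within the same fit and with shared libraries. All 8 transcripts were higher with IFN-γ + ACs than with E. coli + ACs, where 9.84% of all genes were higher. Serping1 was tested only through its IFN-γ libraries, so its passing here is not separate support. Of the 15 macrophage markers tested, 9 were also higher and 0 lower there, with a median log2 change of 1.00 against 1.86 for the 8. C1qb differed by 2.27 ± 0.19 on the log2 scale (SE, limma adjusted p = 5.8e-08), C1qc by 2.01 ± 0.15 (adjusted p = 8.5e-09), C3 by 2.60 ± 0.17 (adjusted p = 2.4e-09) and C1qa by 1.71 ± 0.24 (adjusted p = 3.0e-05). The calls of Cfb and Cfp were narrow. Cfb, at 0.86 (adjusted p = 0.039) with overlapping groups, lost its call in 4 of the fits that left out 1 library, namely E. coli + ACs replicate 2 or 3 or IFN-γ + ACs replicate 1 or 2, at 0.61 to 0.85. Cfp, at 0.60, fell short of 1.5-fold without the same libraries, at 0.49 to 0.58. Under the upper quartile rescaling both lost their calls, Cfb at 0.80 (adjusted p = 0.057) and Cfp at 0.54, so that 6 of 8 remained. The Cfb call was also lost when all genes above 0 were tested (adjusted p = 0.066). Without the replicate 1 libraries of all groups C2 was at 1.21 (limma adjusted p = 0.058).

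Adding E. coli to IFN-γ left 7 of the 8 lower than with IFN-γ alone, where 8.61% of all genes were lower. Of the 15 macrophage markers 11 were also lower and 0 higher, with a median of -1.37 against -1.21 for the 8. The log2 changes were -2.88 ± 0.24 for C1qa (SE, limma adjusted p = 2.4e-07), -2.09 ± 0.19 for C1qb (adjusted p = 7.6e-07) and -2.33 ± 0.15 for C1qc (adjusted p = 1.2e-08). C2 fell by 1.32 ± 0.29, Cfp by 1.10 ± 0.13, Cfb by 0.98 ± 0.29 and C3 by 0.93 ± 0.17. Serping1 was at -0.55 ± 0.38 (adjusted p = 0.34) without overlap between the groups. The Cfb call was lost without IFN-γ + ACs replicate 1 or 2 or IFN-γ + E. coli + ACs replicate 3, at -0.76 to -0.91. Without the replicate 1 libraries of all groups the C2 change was -1.27 (limma adjusted p = 0.064).

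Adding IFN-γ to E. coli left 3 of the 8 past the threshold. For Serping1, which is among them and was tested only through its IFN-γ libraries, this is not separate support. C3 rose by 1.67 ± 0.17 on the log2 scale (SE, limma adjusted p = 1.1e-06) and Serping1 rose to 33.3 times the mean with E. coli alone (adjusted p = 1.4e-08), where 9.79% of all genes were higher. C1qa fell by 1.17 ± 0.24 (adjusted p = 0.0014), where 9.57% were lower. Without the replicate 1 libraries of all groups the C1qa change was -1.12 (limma adjusted p = 0.054). The changes of C1qb, 0.19 (95% interval -0.22 to 0.59), and of C1qc, -0.32 (-0.63 to -0.01), were not past the threshold, and Cfp was at -0.51 (adjusted p = 0.0083), short of 1.5-fold. C2, at 0.00 (-0.61 to 0.61), and Cfb, at -0.13 (-0.72 to 0.47), were not past it either. Under the upper quartile rescaling the split of all genes in this comparison moved from 995 higher and 973 lower to 769 higher and 1352 lower.

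The interaction asks whether the E. coli effect with IFN-γ differs from that without it. It was past the threshold for 3 of the 8, all negative, where 4.28% of all genes were past it in that direction. Of the 15 macrophage markers tested, 5 were also past it in that direction and 0 in the other. Their median was -0.77 against -0.92 for the 8. The difference was -1.56 ± 0.34 for C1qa (SE, limma adjusted p = 0.0078), -0.82 ± 0.21 for C1qc (adjusted p = 0.020) and -1.02 ± 0.19 for Cfp (adjusted p = 0.0022). For these the E. coli effect was more negative with IFN-γ. Those of C1qb (-0.71, adjusted p = 0.12), C2 (-1.01, adjusted p = 0.15), C3 (-0.36, adjusted p = 0.42), Cfb (-1.24, adjusted p = 0.067) and Serping1 (-0.78, adjusted p = 0.42) were not past it. The Cfb difference passed by edgeR (adjusted p = 0.048) and DESeq2 (adjusted p = 0.028) on the recovered reads. That of C1qc missed when all genes above 0 were tested (adjusted p = 0.051) and in the fit of all 18 libraries (adjusted p = 0.090). None of the 3 calls was left without the replicate 1 libraries of all 4 groups, where the differences were -1.57 for C1qa (adjusted p = 0.14), -0.76 for C1qc (adjusted p = 0.21) and -1.02 for Cfp (adjusted p = 0.062). The C1qc call was lost in 5 fits that left out 1 library, ACs replicate 3, E. coli + ACs replicate 1 or 3, IFN-γ + ACs replicate 2 or IFN-γ + E. coli + ACs replicate 1, at -0.68 to -0.80. Without IFN-γ + ACs replicate 3 C1qb (-0.99) and Cfb (-1.50) passed, and Cfb also passed without ACs replicate 1, E. coli + ACs replicate 2 or IFN-γ + E. coli + ACs replicate 2, at -1.37 to -1.49.

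IL-4 + ACs was compared with ACs alone in the IL-4 experiment, where 0.74% of 10669 genes tested were higher and 0.347% lower. Of the 8 transcripts, 7 were tested and 0 passed the threshold by limma, with 1 at an unadjusted p under 0.05, and edgeR and DESeq2 on the recovered reads also gave 0. Cfb was that transcript. Its counts were 62.4, 97.3 and 85.8 with ACs alone and 36.5, 41.6 and 36.0 with IL-4 + ACs, without overlap. The log2 change was -1.06 ± 0.27 (SE, limma adjusted p = 0.15), and without the shallow replicate 3 libraries it was past the threshold, at -0.98 (adjusted p = 0.034).

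The C1q chains overlapped between the groups of the IL-4 experiment. C1qa was at 1129, 1011 and 863 with ACs alone and at 798, 823 and 1306 with IL-4 + ACs. C1qb was at 5564, 7363 and 7426 and at 4395, 4174 and 8974 in the same order, and C1qc at 8139, 9623 and 14052 and at 7920, 7239 and 11472. In the deeper replicate 1 and 2 libraries all values of each chain were lower with IL-4 + ACs, and the overlap came from the shallow replicate 3 libraries. Without these the log2 changes were -0.40 for C1qa (limma adjusted p = 0.037), -0.58 for C1qb (adjusted p = 0.016) and -0.22 for C1qc (adjusted p = 0.24), all short of 1.5-fold. With all 6 libraries the intervals of the log2 changes were -0.51 to 0.38, -0.88 to 0.29 and -0.74 to 0.25. C3 was at 297, 440 and 440 with ACs alone and at 417, 386 and 596 with IL-4 + ACs, with a change of 0.25 (-0.24 to 0.73). Cfp was at 1475, 1882 and 2171 and at 1502, 1394 and 2385, with a change of -0.09 (-0.57 to 0.39). C2 had 2 to 14 reads per library and Serping1 2 to 8, so that a small difference in either was not detectable at this depth. Summed over libraries, Serping1 had 16 reads with ACs alone and 15 with IL-4 + ACs, and C2 had 26 and 27.

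The other genes of the pathway were read from lists of components, regulators and receptors. Of 23 further components only 5 reached the minimum mean in the Type 1 experiment. C4a and C4b, near-identical copies of C4 whose reads may be split between them, were lower with E. coli (-1.74 ± 0.39 and -1.39 ± 0.24 on the log2 scale) and with both (-2.25 and -0.63), and no further component was past the threshold there. With IFN-γ, Fcna, which encodes ficolin A of the lectin pathway, was the 1 component past it, rising by 1.02 ± 0.20 (SE, limma adjusted p = 0.00073). C1ra, which encodes a protease partner of C1q, was tested and not past the threshold in any of the comparisons, whereas C7, C8a, C1rb and C1s2 were at 0 in all 18 libraries. With IL-4, 0 of 5 components tested were past it.

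Of 13 regulators, 5 were tested in the Type 1 experiment, and 2 were lower and 0 higher with each of the 3 stimuli. Cd59a, an inhibitor of the membrane attack complex, was lower with E. coli (-1.56), with IFN-γ (-1.24, overlapping) and with both (-3.46). Cd55, which speeds the decay of convertases, was lower with IFN-γ (-1.22 ± 0.16, adjusted p = 8.6e-06), at means of 178 against 410.0, and at 468 with both. With IL-4, 0 of 4 regulators tested were past the threshold.

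Of 14 receptors, 11 were tested. With E. coli 2 were higher and 3 lower, with IFN-γ 2 higher and 2 lower, with both 3 higher and 3 lower, and with IL-4 0 higher and 1 lower. Itgam and Itgax, the alpha chains of complement receptors 3 and 4, were higher with E. coli (0.85 ± 0.11 and 0.88 ± 0.14) and with both (1.23 and 0.74), and the C5a receptor C5ar1 was higher with both (0.74). Vsig4, a receptor of C3 fragments that is also on the macrophage list, was lower with E. coli (-2.73 ± 0.24, SE, limma adjusted p = 2.2e-07), with both (-3.19) and with IL-4 (-1.36 ± 0.25, adjusted p = 0.031). With IFN-γ, Lrp1 (0.79) and Calr (0.76) were higher, and Cd93 (-0.71) and Vsig4 (-0.68) were lower. Cd93 was also lower with E. coli (-1.16) and with both (-3.06), and Lrp1 was lower with E. coli (means of 52.5 against 105 with ACs alone, limma adjusted p = 0.0026), all 3 past the threshold. All these lists were set beside the same background shares of all genes given above.

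The genes most like each member were found by Pearson's r of log2 counts over the 12 libraries of the Type 1 experiment, among 10165 other genes. These values describe 12 libraries that share their groups, and no test was made. For C1qa they were Tmem86a (r = 0.98), Cd68 (0.96) and Fzd4 (0.96), and for C1qb F7 (0.97), Pdxk (0.97) and Glul (0.96). For C1qc they were Pycard, Serpinb6a and Dusp3 (all 0.97). C1qc ranked 5 among the genes most like C1qb and 6 among those most like C1qa. C3 was close to Pla2g16 (0.99) and Ly6a (0.99), and Serping1 to Cxcl9 (0.99), Stx2 and Igtp (both 0.98). For Cfp the closest were Pltp (0.96), Renbp (0.95) and Rhoc (0.95), for C2 4930430E12Rik (0.96), Cyb5r3 (0.93) and Plin2 (0.93), and for Cfb Plod1 (0.94), Fam129b (0.93) and Tmem104 (0.92). Between members, r was 0.92 for C3 and Serping1, 0.72 for the neighbours C2 and Cfb and -0.10 for C1qa and Serping1.

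The defining markers of thymocytes, B cells, neutrophils, mast cells and dendritic cells were at no more than 46.9 normalized counts in any library. The summed counts of 14 thymocyte markers, the cells that were added dead, ranged from 55.6 to 274.4, those of 8 dendritic cell markers from 44.8 to 200.8 and those of 8 mast cell markers from 190.0 to 755.5. Those of 10 neutrophil markers ranged from 1127 to 4773, with Mpo and Ltf at 0 in 13 and 10 of 18 libraries, and those of 8 B cell markers from 98.9 to 1046. In the Type 1 experiment the B cell sum was 903 to 1046 with ACs alone and 98.9 to 323 with the stimuli. Most of it was Ighm, not a defining marker, at means of 911 with ACs alone and 110 to 246 with the stimuli. The mast cell sum was 200.8 to 283.8 with ACs alone and 658 to 755.5 with both. Most of it was Hdc, not a defining marker, at means of 222 and 656. The defining Cpa3 also rose, from 4.07 to 31.3, and Cma1, Tpsb2 and Mcpt4 had means of at most 9.32 in these groups. Of 12 eosinophil markers 9 were tested, and 5 were lower and 0 higher with IFN-γ. Their sum was 10968 to 12493 with IFN-γ against 17701 to 19157 with ACs alone. It was 19474 to 20794 with E. coli and 16389 to 18960 with both. Its largest part was Alox15, not a defining marker, at means of 9408 with ACs alone and 5456 with IFN-γ. Of the defining markers, Siglecf (-0.99) and Il5ra (-0.71) were lower with IFN-γ. Ccr3 (-0.14) and Prg2 (-0.20) were not past the threshold there. Of 5 neutrophil markers tested, 3 were higher and 0 lower with E. coli and with IFN-γ, and 4 higher and 1 lower with both. With E. coli these were S100a8, S100a9 and Cxcr2, none of them a defining marker. The defining Ly6g was at 0.55 there (limma adjusted p = 0.55). It was past the threshold with IFN-γ and with both, at means of 21.55 and 17.8 against 3.74 with ACs alone. The part of these cells in the complement results was not tested.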

How the data were processed

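RNA of re-purified eosinophils was sequenced by CEL-Seq2 in 18 libraries. The deposited value of a gene in a library is a signal, the reads counted on it over the size factor DESeq2 gives. The submitters' processing notes name TopHat2 2.1.0, HTSeq 0.6.1, DESeq2 1.26.0 and GRCm38; the methods also name fastp and STAR, and which pipeline made the table is not stated. Values were whole multiples of 1 step per library, so whole reads were recovered for 100.0% of values (tolerance 0.1 read). Reads on genes numbered 779421 to 7782072 per library (median 4461121). In R 4.3.3, lmFit and eBayes (with a mean-variance trend) of limma 3.58.1 were run on log2(signal + 1) of genes with a mean of at least 10, over the 12 libraries of the Type 1 experiment or the 6 of the IL-4 experiment. Intervals from reads cover counting error only. Alternatives included the recovered reads in edgeR 4.0.16 or in DESeq2 1.42.0, a pseudocount of 5, other filters, upper quartile rescaling, the replicate number as a term, a joint fit and leaving out libraries. The fits were tested on simulated data. The members, the gene lists and the tests were chosen with earlier results of these data known. Named genes were all 8 members; of the other complement lists, up to 3 rises and 3 falls against ACs among genes past the threshold whose higher group averaged 50 or more; the 3 genes with the highest r for each member; and the defining markers. C4b, C1ra, genes at 0 and some further changes of named genes were added with their values seen. A few genes that these rules name are not reported here. On the recovered reads edgeR called 1227, 2227 and 3276 genes with E. coli, IFN-γ and both and 212 with IL-4. Symbols were matched for 54409 of 54446 identifiers. Python 3.11.15, pandas 2.3.3 and scipy 1.17.1 were used.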

Additional observations from a re-analysis of the deposited data

Results flagged for a closer look

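The E. coli effect differed between libraries with and without IFN-γ for 3 transcripts, by the interaction term of limma. None of these calls was left without the replicate 1 libraries of all groups. The C1qc call was also lost in several fits that left out a single library, in the joint fit and with all genes above 0. For C1qa the difference was -1.56 on the log2 scale, from means of 585 to 230 without IFN-γ and of 771 to 106 with it. For C1qc it was -0.82, from 8319 to 2930 without and from 11870 to 2337 with IFN-γ. For Cfp it was -1.02, with means of 1076 and 1010 without IFN-γ and of 1536 and 708 with it. Of the 15 macrophage markers tested, 5 were past the threshold by this term in the same direction and 0 in the other. With 3 libraries per group, no single library was tested for standing apart.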

How the results depend on the processing

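The number of the 8 transcripts past the threshold stayed within 1.5 times the reported one under every alternative except in fits that left out libraries. There the interaction count ranged from 0, without the replicate 1 libraries, to 5, without IFN-γ + ACs replicate 3, and the IL-4 count from 0 to 1. Of 1172 member values recomputed, 30 changed sign with libraries left out and 3 under other settings, none of which was past the threshold in the reported fit or in the alternative. With libraries left out, the ranges of those log2 changes were -0.19 to 0.018 for Cfp and -0.25 to 0.75 for Serping1 with E. coli, and -0.081 to 0.37 for Cfb with both stimuli. Of IFN-γ added to E. coli they were -0.029 to 0.48 for C1qb, -0.19 to 0.26 for C2 and -0.50 to 0.13 for Cfb. With IL-4 they were -0.40 to 0.15 for C1qa, -0.16 to 0.41 for C2 and -0.33 to 0.081 for Cfp. Upper quartile rescaling, which moved the median of all genes from -0.05 to -0.18 with both stimuli and from -0.04 to -0.15 for IFN-γ added to E. coli, turned Cfb with both to -0.0037 and C2 in the latter to -0.10. A pseudocount of 5 turned C2 with IL-4 to 0.016. Other settings ended 6 calls of members and made 9, and the calls that ended are given beside their results. The cause was not tested. Same-numbered libraries did not deviate together (r of -0.089 to 0.085 over 18 pairs and 0.00053 to 0.021 over 3 pairs), so the numbers were not taken as pairs. With the replicate block the Cfb interaction (-1.24, adjusted p = 0.031) joined the calls, for 4 of 8, and counts of members in the other comparisons were as reported. The C1q ratios of the Type 1 experiment were also compared with libraries left out, an alternative added after the data had been seen. Libraries with and without E. coli were pooled as before. The log2 difference with and without IFN-γ was 0.79 to 1.05 for C1qb over C1qa (exact permutation p at most 0.029). It was 0.23 to 0.66 for C1qb over C1qc (at most 0.086) and 0.33 to 0.56 for C1qc over C1qa (at most 0.057). Over all genes the IL-4 calls, 116 in the reported fit, numbered 212 by edgeR, 209 by DESeq2, 221 with all 18 libraries, 208 with all genes above 0 and 74 with the block, and the interaction calls fell from 756 to 495 with all 18 libraries. In the shallow IL-4 libraries 3 reads equal 15.4 and 16.1 normalized counts, which limits C2 and Serping1.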

Other observations

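The ACs libraries of the separate experiments were not compared by a test, since the experiment and any difference between them cannot be told apart. The mean normalized counts of C1qb with ACs alone were 2580 ± 294 for Type 1 and 6784 ± 1057 for IL-4 (SD, n = 3 each). For C1qa they were 585 ± 141 and 1000.8 ± 133, for C3 214 ± 31.1 and 392.2 ± 82.4, for Cfp 1076 ± 155 and 1843 ± 350 and for C2 32.2 ± 8.62 and 9.68 ± 1.64 in the same order (SD, n = 3). Those of C1qc were 8319 ± 1202 and 10605 ± 3076 and those of Cfb 84.3 ± 25.7 and 81.8 ± 17.8 (SD, n = 3). The macrophage marker sum was 15219 to 19565 in the former and 26899 to 40441 in the latter.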
